A study of Caenorhabditis elegans with 6 samples.

Results

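The genes described here encode the structural proteins of the basement membrane of Caenorhabditis elegans. They were chosen by gene symbol from the deposited table: the type IV collagen chains emb-9 and let-2, the type XVIII collagen cle-1, the laminin chains lam-1, lam-2, lam-3 and epi-1, the nidogen nid-1 and the perlecan unc-52. All 9 were found, each in a single row of the 20473 genes of the table, and all 9 passed the filter on low counts. RNA was sequenced from whole wild-type N2 worms kept for 72 h at 20 °C, in 3 libraries with diquat dibromide monohydrate at 100 µg/L and 3 libraries without it (0 µg/L). This herbicide cycles between reduced and oxidised forms in cells and hands electrons to oxygen. The libraries were made from poly(A)-selected RNA and are numbered 1 to 3 in each group. Nothing in the labels says that the libraries of a group are separate cultures. The spread between them, on which the p-values rest, may therefore be technical.

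A basement membrane is a thin sheet of extracellular matrix that underlies epithelia and surrounds muscle and organs. Type IV collagen and laminin each form a network in it. Nidogen binds laminin and collagen, and perlecan, a heparan sulfate proteoglycan, links the sheet to cell attachments. Type IV collagen is a trimer of alpha 1 chains, encoded by emb-9, and alpha 2 chains, encoded by let-2. A laminin trimer holds an alpha, a beta and a gamma chain. In the worm the alpha chain is encoded by either lam-3 or epi-1, the beta chain by lam-1 and the gamma chain by lam-2. Body wall muscle is the main source of type IV collagen in the worm and also makes perlecan. In whole-worm RNA, fewer cells of a type and less RNA per cell cannot be told apart.

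On the WBcel235 assembly emb-9 lies on chromosome III, from 9336881 to 9344447, and let-2 on chromosome X, from 16380597 to 16389340. The gene cle-1 spans 8705668 to 8724279 on chromosome I. The laminin genes are on chromosome IV (lam-1, 5173332 to 5183746, and epi-1, 10666823 to 10679291), on chromosome X (lam-2, 7143846 to 7151239) and on chromosome I (lam-3, 10608466 to 10621435). The gene nid-1 spans 12910107 to 12917221 on chromosome V, and unc-52 14647321 to 14684456 on chromosome II. These are long transcripts: the exons of cle-1, the shortest by this measure, cover 4378 bases, and those of unc-52 cover 14253 bases over 17 annotated transcripts. Only cle-1 shares more than 29 exonic bases with genes on the opposite strand. It shares 250, 158 of them with cdk-8, and since no source used here gives the strand setting of the counting, reads there cannot be assigned.

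Levels between genes were compared per length, as the FPKM that the authors deposited. The type IV collagens were far above the rest. The median FPKM over the 6 libraries was 271 for let-2, with a range of 220 to 292, and 185 for emb-9, with a range of 152 to 204. unc-52 followed with a median of 96.3 FPKM and a range of 84.6 to 100.3. The laminin gamma chain lam-2 had a median of 11.7 FPKM and nid-1 of 11.8 FPKM, and these did not differ beyond their spread (8.91 to 17.1 for lam-2 and 8.80 to 17.8 for nid-1). cle-1 had a median of 16.5 FPKM and a range of 14.5 to 17.9, which overlapped that of nid-1. The alpha chains were lowest, epi-1 at a median of 5.99 FPKM (5.004 to 8.715) and lam-3 at 3.09 FPKM (2.62 to 6.87), and their ranges overlapped. lam-1, with a median of 20.4 FPKM, ranged from 12.3 to 73.6 FPKM, and its place in the order is uncertain for the reason given below. Per kilobase of annotated exon the first 4 places were the same (let-2, emb-9, unc-52, lam-1), while cle-1 moved below lam-2 and nid-1 (a median of 8.91 CPM per kilobase, against 11.9 for lam-2 and 11.1 for nid-1), and the ranges of let-2 and emb-9 met.

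**Figure D1:**
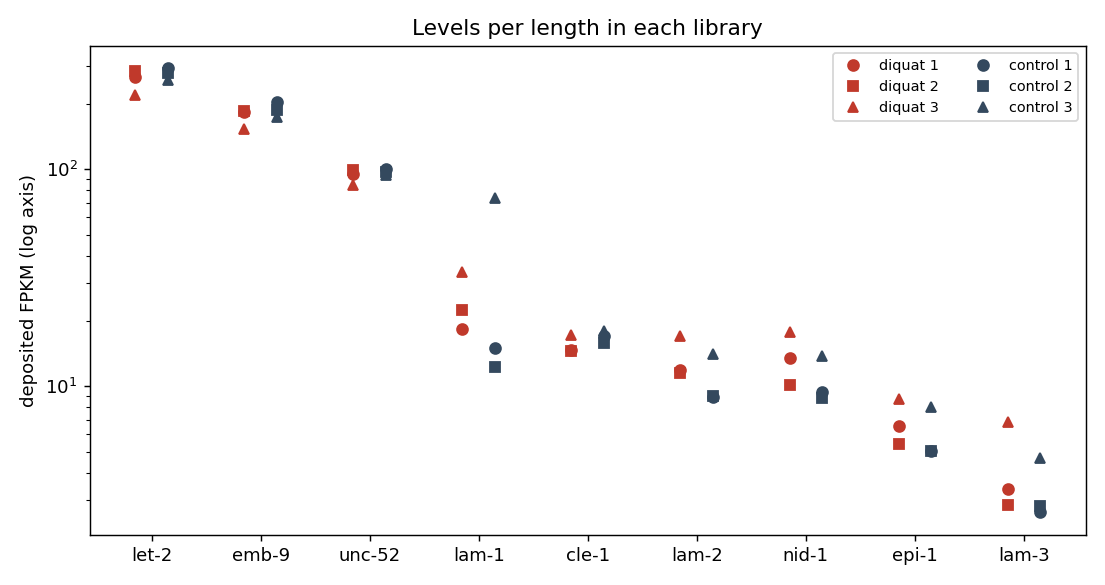
Deposited FPKM (log axis) of the 9 basement membrane genes in each diquat library (red) and control library (dark). let-2 and emb-9 lie at 152 FPKM or above in every library and lam-3 lies between 2.62 and 6.87, while the control 3 value of lam-1 (73.6) stands far above its other libraries.

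The comparison asks whether these transcripts differed between worms with diquat and worms without it. None of the 9 passed the edgeR test over all genes in either direction. The background in the same test was 0% of 13252 genes called higher (0 genes) and 0.913% called lower (121 genes), at a Benjamini-Hochberg adjusted p under 0.05. At an unadjusted p under 0.05 the test had 204 genes higher and 620 lower, and 0 of the 9. DESeq2 called 2 genes higher and 156 lower, none of them among the 9. All 9 log2 fold changes lay between -0.16 (cle-1) and 0.33 (lam-1), with a median of 0.15, beside a median of 0.01 over all genes tested. The collagens and perlecan had log2 fold changes below 0, and the laminins and nidogen above 0.

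A second fit took the replicate number as a block, so that each diquat library was set against the control library of the same number. In that fit 4 of the 9 genes rose (lam-1, lam-2, lam-3 and nid-1) and 0 fell. The background was 4.51% of genes called higher (598) and 4% called lower (530). The block rests on numbers whose pairing is clear in the data only for number 3. All 4 calls were lost without the libraries numbered 1 (adjusted p = 0.239, 0.271, 0.369 and 0.266 for lam-1, lam-2, lam-3 and nid-1). The call of lam-2 was also lost without the libraries numbered 2, and that of lam-3 without those numbered 3. Long transcripts were higher with diquat in general. Of the 570 tested genes with exons of at least 4378 bases, 13.5% rose and 0.702% fell with the block, and their median log2 fold change was 0.13, with or without it.

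The laminin beta chain lam-1 had 107, 95.4 and 136 CPM in diquat libraries 1, 2 and 3, against 77.5, 79.3 and 112 CPM in control libraries 1, 2 and 3. It was higher with diquat at each number, and the groups overlapped because control 3 lay above diquat 1 and diquat 2. The means were 113 ± 21.1 CPM with diquat and 89.5 ± 19.3 CPM in control (SD, n = 3 each; log2 fold change 0.33, standard error 0.17, 95% confidence interval -0.02 to 0.69, edgeR adjusted p = 0.819). With the block the log2 fold change was 0.34 and the standard error 0.07 (adjusted p = 0.00192).

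The gamma chain lam-2, which every worm laminin trimer contains, had 69.9, 73.8 and 93.2 CPM in the diquat libraries and 53.1, 58.6 and 80.6 CPM in the control libraries. Again each diquat library lay above the control library of its number, and control 3 lay above diquat 1 and 2. The log2 fold change was 0.30 (95% confidence interval -0.05 to 0.65, edgeR adjusted p = 0.819), and with the block 0.31 (standard error 0.07, adjusted p = 0.00678).

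The alpha chains differed from each other in single libraries. lam-3, which encodes laminin alpha A, had 31.1, 28.8 and 59.4 CPM in the diquat libraries and 24.7, 28.9 and 42.2 CPM in the control libraries. Its difference rested largely on diquat 3, the highest library by far. The log2 fold change was 0.32 over all libraries (95% confidence interval -0.25 to 0.89, edgeR adjusted p = 0.821) and -0.11 without diquat 3. With the block it was 0.28 (edgeR adjusted p = 0.0470), and 0.16 in that fit with both libraries numbered 3 left out. epi-1, which encodes laminin alpha B, had 71.7, 64.3 and 88.6 CPM in the diquat libraries and 55.6, 60.5 and 85.8 CPM in the control libraries. Here the groups overlapped and no fit called a difference (log2 fold change 0.15, 95% confidence interval -0.21 to 0.52, edgeR adjusted p = 0.859; 0.190 with the block). Without diquat 3 alone the log2 fold change of epi-1 was -0.0042. With both libraries numbered 3 left out of the blocked fit it was 0.23.

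Nidogen, which binds laminin, was likewise highest in library 3 of each group. nid-1 had 60.7, 51.1 and 75.5 CPM in the diquat libraries and 44.1, 43.7 and 61.1 CPM in the control libraries. It was higher with diquat at each number, and control 3 lay above diquat 1 and 2. The log2 fold change was 0.33 (95% confidence interval -0.03 to 0.69, edgeR adjusted p = 0.819), and with the block 0.33 (standard error 0.08, adjusted p = 0.00637).

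In both groups library 3 held the highest value of all 4 laminin chains and of nid-1. The level in library 3 relative to the mean of libraries 1 and 2 ranged over these 5 genes from 1.297 to 1.99 in the diquat libraries and from 1.39 to 1.58 in the control libraries. Without control 3 the log2 fold changes of lam-1, lam-2, lam-3, epi-1 and nid-1 were 0.55, 0.52, 0.60, 0.39 and 0.53. None of these passed the test (edgeR adjusted p = 0.165 to 0.288). Without diquat 3 the log2 fold changes of lam-1, lam-2 and nid-1 were 0.16, 0.15 and 0.15. Across the 570 long genes the median deviation from the 6-library mean was 0.01, 0.02 and 0.20 on the log2 scale in the diquat libraries and -0.24, -0.13 and 0.16 in the control libraries, so long transcripts in general were also highest in library 3 of each group. The part of transcript length in the laminin values was not tested beyond the fits with the length trend removed, given below.

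**Figure D2:**
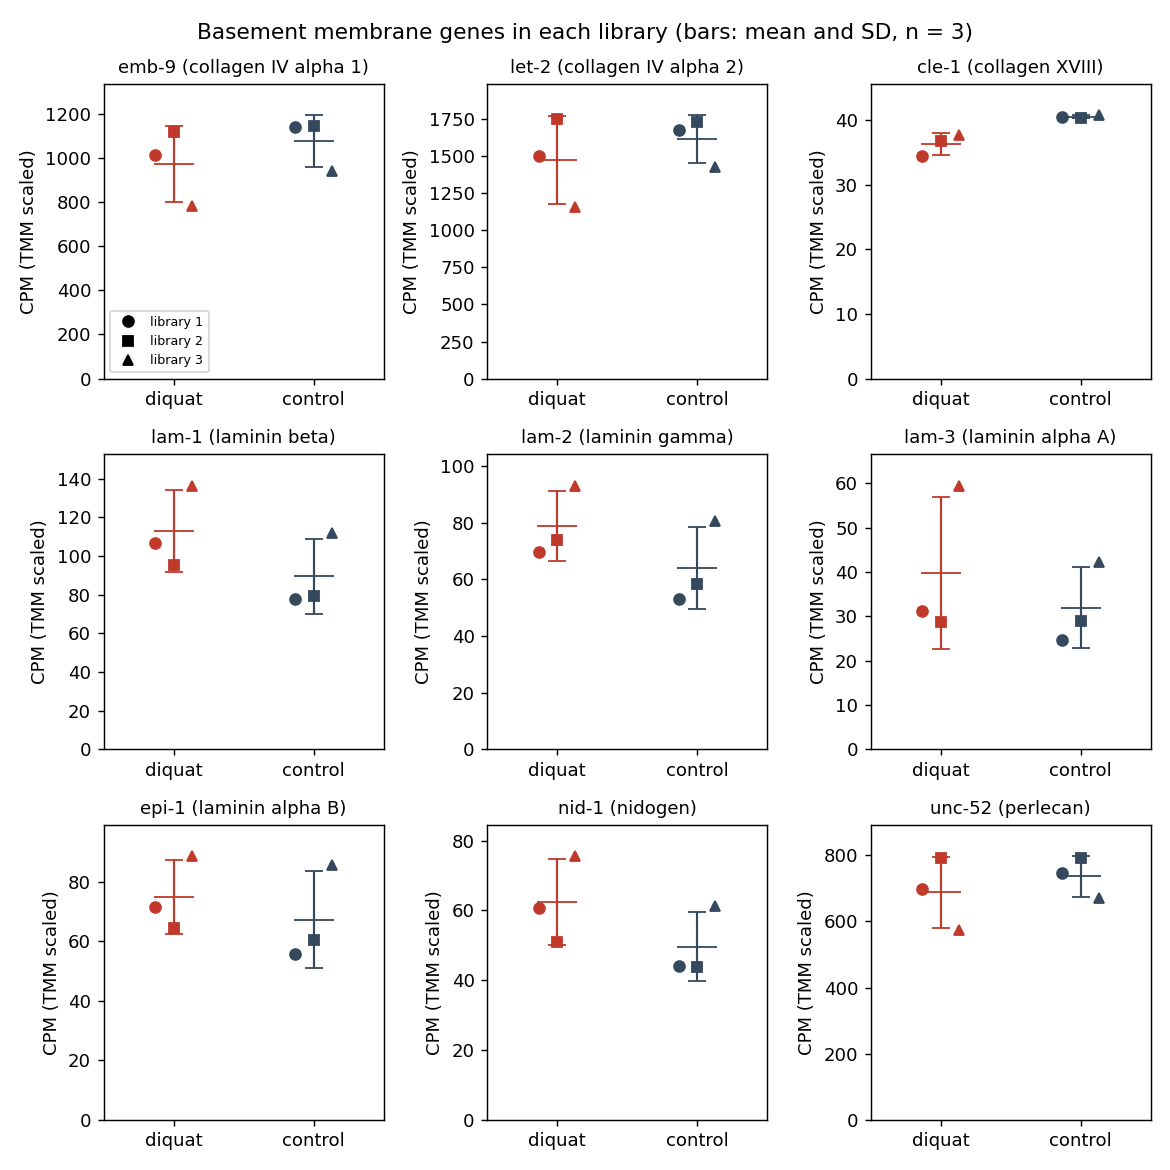
CPM of each gene in diquat (left, red) and control (right, dark) libraries, with marker shapes for library numbers 1 to 3 and bars for the mean and SD (n = 3 each). Library 3 (triangles) is highest in both groups for the laminin chains and nidogen and lowest for emb-9, let-2 and unc-52, and for cle-1 alone do all 3 diquat libraries lie below all 3 control libraries.

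The type IV collagen chains were instead lowest in library 3 of each group. emb-9 had 1014, 1118 and 782 CPM in the diquat libraries and 1140.2, 1146 and 941 CPM in the control libraries. Every diquat library lay below the control library of its number, and the groups overlapped. The log2 fold change was -0.15 (95% confidence interval -0.47 to 0.17, edgeR adjusted p = 0.845), and with the block -0.16 (standard error 0.05, adjusted p = 0.0535). let-2 had 1499.6, 1749 and 1159 CPM in the diquat libraries and 1677, 1731 and 1428 CPM in the control libraries. In CPM diquat 2 lay above all control libraries, while by FPKM it lay below control 1 (284 against 292). The log2 fold change was -0.13 (95% confidence interval -0.47 to 0.20, edgeR adjusted p = 0.873), and with the block -0.15 (adjusted p = 0.0699). Both values moved with the library left out. Without diquat 3 alone the log2 fold change was -0.03 for emb-9 and -0.0021 for let-2. Without diquat 2 it was -0.26 for emb-9 and -0.28 for let-2, and without control 3 it was -0.22 and -0.20. With both libraries numbered 3 left out of the blocked fit it was -0.10 for emb-9 and -0.07 for let-2.

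Perlecan, which anchors body wall muscle to the basement membrane, behaved in the libraries like type IV collagen. unc-52 had 697, 791 and 576 CPM in the diquat libraries and 747, 791 and 671 CPM in the control libraries. At number 2 the values were nearly equal, and the groups overlapped (log2 fold change -0.10, 95% confidence interval -0.39 to 0.20, edgeR adjusted p = 0.895; 0.229 with the block). Without diquat 3 alone its log2 fold change was 0.0014, and with both libraries numbered 3 left out of the blocked fit it was -0.05. The counts of unc-52 sum over all its transcripts, so nothing is known here of its isoforms.

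Type XVIII collagen differed little between libraries. cle-1, whose protein ends in an endostatin domain, had 34.4, 36.8 and 37.7 CPM in the diquat libraries and 40.5, 40.3 and 40.7 CPM in the control libraries. In CPM all diquat libraries lay below all control libraries, as for 6.68% of the genes tested. By deposited FPKM the groups overlapped, at 14.7, 14.5 and 17.2 in the diquat libraries and 17.1, 15.9 and 17.9 in the control libraries. None of the 9 had all diquat libraries above the control libraries, as 4.07% of the genes tested had. The means were 36.3 ± 1.71 CPM with diquat and 40.5 ± 0.223 CPM in control (SD, n = 3 each; log2 fold change -0.16, 95% confidence interval -0.41 to 0.09). It passed neither test (edgeR adjusted p = 0.820; 0.244 with the block). Of the 9 genes, 4 were higher with diquat at each number (lam-1, lam-2, epi-1 and nid-1) and 3 were lower (emb-9, cle-1 and unc-52), beside 23.1% and 19.6% of all genes.

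Most markers of body wall muscle were, like type IV collagen, lowest in library 3. This held in both groups for 10 of 16 markers, while 3, unc-89 among them (named after its values were seen), were highest in library 3 of both groups. The share of all genes with either order was not counted. Across 12028 genes the libraries numbered 3 deviated together, with a correlation of 0.566. Of the 16 markers, 0 passed the edgeR test without the block, with a median log2 fold change of -0.13. With the block 7 fell (unc-54, unc-15, unc-27, lev-11, pat-10, mlc-1 and mlc-2) and 0 rose. Over all genes 4% were called lower and 4.51% higher in that fit. The most abundant per length were mlc-2, a myosin light chain, at 531 ± 58.4 CPM with diquat and 632 ± 72.1 CPM in control (blocked edgeR adjusted p = 0.00233), and the troponin C gene pat-10, at 385 ± 38.3 CPM with diquat and 435 ± 51.8 CPM in control (SD, n = 3 each; blocked edgeR adjusted p = 0.0428). With both the block and the correction for length described below, mlc-2 and pat-10 did not pass (edgeR adjusted p = 0.0814 and 0.203). In that fit 7 markers fell (unc-54, unc-15, unc-27, mup-2, lev-11, unc-89 and mlc-1), beside 5.45% of all genes. unc-54, the main myosin heavy chain of body wall muscle and named after its value was seen, averaged 1709 ± 333 CPM with diquat and 2028 ± 152 CPM in control (SD, n = 3 each; blocked log2 fold change -0.26, edgeR adjusted p = 0.00264). The summed level of the 16 markers was 5002 to 6709 CPM in the diquat libraries and 6162 to 7182 CPM in the control libraries, lowest in library 3 of each group, and no marker was at 0 in any library. The part of muscle RNA in the values of emb-9, let-2 and unc-52 was not tested.

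Removing the length trend of each library moved the log2 fold changes of all 9 genes downward, with differences of -0.16 to -0.12 on the log2 scale. Without the block 0 of the 9 passed, beside 0.00755% of all genes called higher (1 gene) and 0.672% called lower (89). With both the block and the length correction, lam-1 and nid-1 rose and emb-9, let-2, cle-1 and unc-52 fell, beside 4.06% of genes called higher (538) and 5.45% called lower (722). Calls in this fit were not examined with a pair left out. The log2 fold changes in that fit were 0.21 for lam-1 (standard error 0.07, edgeR adjusted p = 0.0214) and 0.21 for nid-1 (0.07, adjusted p = 0.0436). They were -0.28 for emb-9 (standard error 0.06, edgeR adjusted p = 6.03e-05), -0.28 for let-2 (adjusted p = 8.68e-05), -0.27 for cle-1 (adjusted p = 0.0126) and -0.26 for unc-52 (adjusted p = 0.000528). lam-2 (adjusted p = 0.0707), lam-3 (0.267) and epi-1 (0.898) did not pass. In this fit the share of the 570 long genes called higher was 2.46% and the share called lower 10.9%. Among the fits with all 3 pairs, the collagens and perlecan were thus called lower only with the length trend removed, and lam-2 and lam-3 higher only with it kept. For the collagens and perlecan, removing the trend widened the spread between control libraries. Their control SD went from 117 to 264 CPM for emb-9 and from 162 to 381 CPM for let-2. It went from 61.1 to 192 CPM for unc-52 and from 0.223 to 4.80 CPM for cle-1. The control SD of the laminin chains and nid-1 narrowed instead, for lam-1 from 19.3 to 6.60 CPM.

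**Figure D3:**
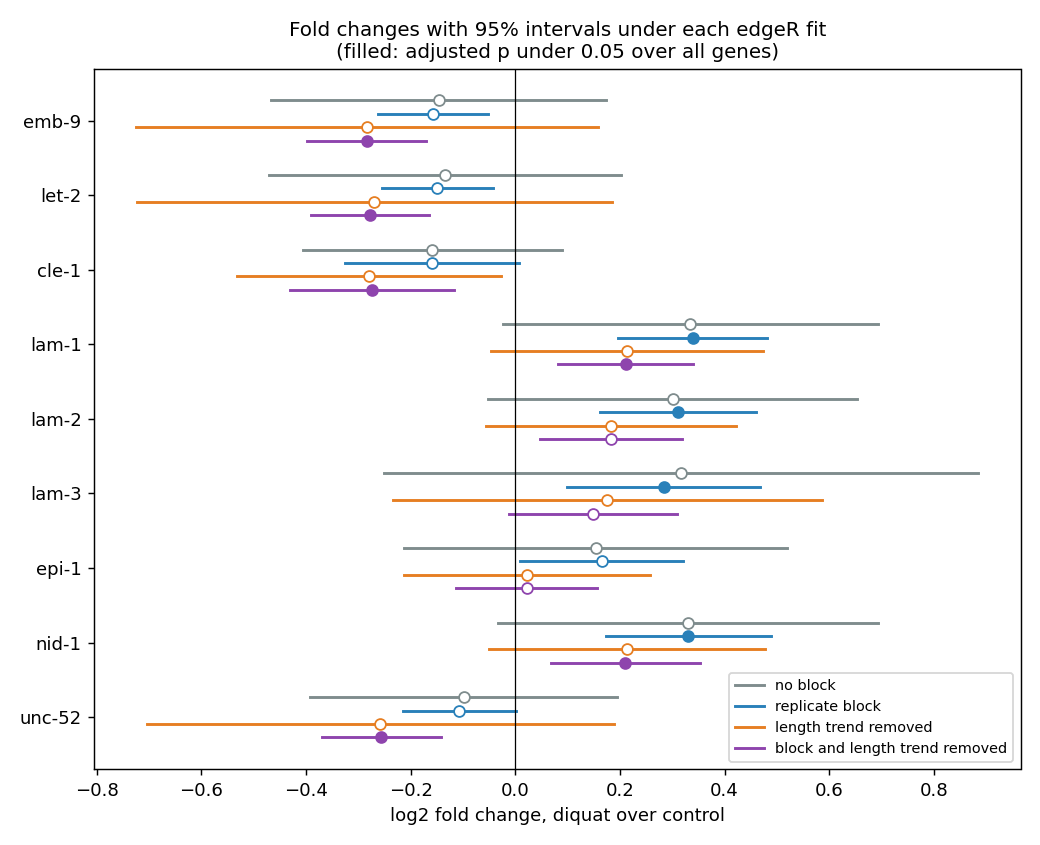
Log2 fold change (diquat over control) of each gene with its 95% confidence interval under 4 edgeR fits, with filled circles for an adjusted p under 0.05 over all genes. The laminin chains and nidogen lie right of 0 and the collagens and perlecan left of it in each fit, but no gene is filled without the block.

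The direction that the authors' deposited table gives for lam-1 differs from its counts. In the authors' deposited table the log2 fold change of lam-1 is -0.44, from a mean of 24.8 FPKM with diquat and 33.6 FPKM in control, while the deposited counts, divided by the library total, gave 0.38. The FPKM were 18.4, 22.5 and 33.5 in the diquat libraries and 15.1, 12.3 and 73.6 in the control libraries. The control mean rests on the 73.6 of control 3, where the count was 2747 against 1908 and 1738 in the other control libraries. The length implied by the count and the FPKM was 5915, 3956 and 4448 bases in the diquat libraries and 5152, 5915 and 1583 bases in the control libraries. Among the other genes of the group the largest ratio of implied lengths between libraries was 1.03, for nid-1. Over the 8397 genes with at least 100 counts in every library a ratio as large as that of lam-1 (3.74) was found in 0.0476%. The annotation gives lam-1 a transcript of 5901 bases and another of 231 bases within the same gene. How the reads were divided between them was not tested. In the authors' deposited table the p-value of lam-1 is 0.0519 and the FDR 0.998. The p-values of that table equal those of a DESeq2 fit with group as the only term, made here from the counts, within 0.0001 for all 18067 genes with such a value. The log2 fold change of -0.44 in the authors' deposited table thus stands beside a p-value from counts in which lam-1 was higher with diquat (DESeq2 log2 fold change 0.34). lam-1 was among 3 of the 8397 genes in which both measures had opposite signs and lay 0.5 or more apart.

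**Figure D4:**
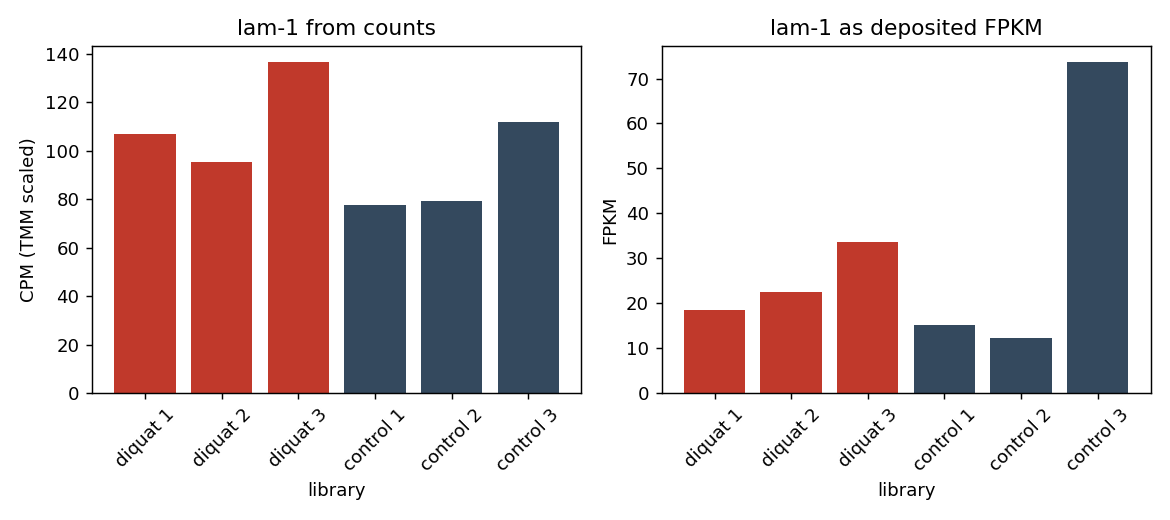
lam-1 in each library, as CPM from the deposited counts (left) and as deposited FPKM (right), diquat in red and control in dark. By counts the control libraries lie at 77.5, 79.3 and 112 CPM, while by FPKM control 3 stands at 73.6 against 15.1 and 12.3 in control 1 and 2.

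Ratios within a library do not depend on the scaling between libraries, and 7 were compared. The chains of type IV collagen kept a nearly constant ratio. let-2 over emb-9, in FPKM, was 1.44, 1.53 and 1.45 in the diquat libraries and 1.44, 1.47 and 1.48 in the control libraries (exact two-sided permutation p = 0.80; adjusted over the 7 ratios p = 1). With 3 libraries against 3 the smallest p this test can give is 0.1. unc-52 over emb-9 was 0.516, 0.533 and 0.555 in the diquat libraries and 0.493, 0.520 and 0.540 in the control libraries (exact permutation p = 0.5). By FPKM the diquat library was the higher at each number (exact sign flips over the 3 pairs, p = 0.25, the smallest they can give). From counts per exon length with the length trend removed, it was the higher at 2 of the 3 numbers (exact sign flips, p = 0.5).

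The ratio of the alpha chains epi-1 over lam-3 was 1.96, 1.90 and 1.27 in the diquat libraries and 1.91, 1.79 and 1.73 in the control libraries (exact permutation p = 0.9). Diquat 3 alone lay outside the range of the others, through its high lam-3. The beta over gamma ratio lam-1 over lam-2 was taken per kilobase of exon from the counts, since the FPKM of lam-1 varied as described. It was 1.56, 1.32 and 1.499 in the diquat libraries and 1.49, 1.39 and 1.42 in the control libraries (exact permutation p = 0.8). By FPKM it was 1.54, 1.95 and 1.96 in the diquat libraries and 1.69, 1.37 and 5.23 in the control libraries (exact permutation p = 0.9). Both alpha chains together over lam-2 averaged 0.820 ± 0.10 with diquat and 0.875 ± 0.0238 in control (SD, n = 3 each; exact permutation p = 0.5). nid-1 over lam-2 averaged 1.02 ± 0.129 with diquat and 1.00 ± 0.0485 in control (exact permutation p = 1), and cle-1 over emb-9 0.0902 ± 0.0198 with diquat and 0.0905 ± 0.0106 in control (exact permutation p = 1).

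A ratio chosen after the values were seen, and so given without a test, sets laminin against collagen. lam-2 stood at 6.48%, 6.20% and 11.2% of the FPKM of emb-9 in the diquat libraries and at 4.38%, 4.81% and 8.06% in the control libraries. At each number the diquat library was the higher, while control 3 lay above diquat 1 and 2.

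The other genes of basement membranes were taken in lists. Their calls with the block stand beside 4.51% of all genes called higher and 4% called lower. Those with both corrections stand beside 4.06% and 5.45%. Among 12 other matrix proteins, neither edgeR fit called any (0 without the block and 0 with it), and the median log2 fold change was 0.12. The most abundant per length were ost-1, the worm SPARC, at 332 ± 58.1 CPM with diquat and 374 ± 51.2 CPM in control, and mig-6, which encodes papilin, at 1013 ± 159 CPM with diquat and 1068 ± 88.0 CPM in control (SD, n = 3 each; edgeR adjusted p = 0.828 and 0.917). With both corrections mig-6 and the transmembrane collagen col-99 fell (edgeR adjusted p = 0.00326 and 0.00117). Among 13 tested receptors 0 passed without the block, with a median of 0.15. The syndecan sdn-1 averaged 124 ± 6.53 CPM with diquat and 121 ± 8.96 CPM in control (edgeR adjusted p = 0.962), and let-805, which encodes myotactin, 417 ± 72.1 CPM with diquat and 427 ± 27.1 CPM in control (edgeR adjusted p = 0.965).

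With the block 4 receptors rose and 0 fell, beside 4.51% and 4% of all genes. The 4 are named here after their values were seen. They were the integrin alpha chains pat-2 (log2 fold change 0.39, edgeR adjusted p = 0.00966) and ina-1 (0.34, 0.0168), their beta chain partner pat-3 (0.23, 0.0365) and the adhesion molecule sax-7 (0.28, 0.0113). Of these, pat-2 also rose with the length trend removed (0.29, adjusted p = 0.0218), whereas pat-3, ina-1 and sax-7 did not pass (0.168, 0.0597 and 0.116), and let-805 fell.

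Of 14 genes for the making and export of type IV collagen 0 passed without the block, and the median log2 fold change was -0.01. The protein disulfide isomerase pdi-2 averaged 2535 ± 323 CPM with diquat and 2633 ± 314 CPM in control, and the calreticulin crt-1 1811 ± 217 CPM with diquat and 1916 ± 201 CPM in control (SD, n = 3 each; edgeR adjusted p = 0.950 and 0.914). With the block let-268, the lysyl hydroxylase that modifies type IV collagen, rose, and 0 fell (named after its value was seen; log2 fold change 0.34 with a standard error of 0.09, edgeR adjusted p = 0.0179). It averaged 33.7 ± 9.71 CPM with diquat and 26.3 ± 4.52 CPM in control, and it rose also with the length trend removed (0.26, adjusted p = 0.0347), where the coat protein gene sec-23 fell (-0.17, adjusted p = 0.0386).

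Among 11 tested proteases and inhibitors of remodelling 0 passed in either fit, and the median was -0.12. The metalloprotease zmp-4 averaged 39.2 ± 2.62 CPM with diquat and 42.0 ± 1.95 CPM in control, and cri-2, a relative of the tissue inhibitors of metalloproteases, 10.2 ± 1.14 CPM with diquat and 11.1 ± 1.25 CPM in control (SD, n = 3 each; edgeR adjusted p = 0.874 and 0.890). With both corrections the protease gene adt-1 fell (adjusted p = 0.0422). Heparan sulfate synthesis builds the sugar chains of perlecan and syndecan. Of 17 genes listed for it, 15 had a log2 fold change above 0, beside 6982 of all 13252 genes tested. The median of the 17 was 0.14, and 0 of them passed without the block. With it the chain polymerase gene rib-1 (0.40, edgeR adjusted p = 0.0199) and sqv-1 (0.31, 0.0199) rose and 0 fell, and both rose with the length trend removed (adjusted p = 0.0100 and 0.0238), named after their values were seen. The most abundant of the list per length were sqv-4, at a log2 fold change of -0.04, and sqv-2, at 0.01 (edgeR adjusted p = 0.952 and 0.990).

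Markers of the 7 tissues listed, 82 genes in all, had counts in every library. Outside muscle, the somatic gonad, pharynx, epidermis, germline and neuron lists had 0 genes called by edgeR in either fit, unblocked or blocked. Their medians without the block were 0.05, -0.15, 0.10, 0.01 and -0.12. With both the block and the length correction 3 neuron markers and 1 pharynx marker fell and 1 germline marker rose. The somatic gonad and epidermis lists had 0 calls in that fit. The somatic gonad markers, a further source of basement membrane, summed to 515 to 518 CPM in the diquat libraries and 480 to 553 CPM in the control libraries. Of 11 intestine markers mtl-1, a metallothionein gene, fell without the block (log2 fold change -0.72). That call was lost when diquat 1, diquat 3 or any control library was left out. With the block 1 intestine marker rose and 4 fell, beside 4.51% and 4% of all genes. With both corrections 0 rose and 4 fell, beside 4.06% and 5.45% of all genes. The total count was 23390547 to 23569605 in the diquat libraries and 23589685 to 24593469 in the control libraries, and each of the 9 genes had at least 609 counts in every library.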

How the data were processed

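RNA of whole N2 worms was sequenced in 3 diquat and 3 control libraries, grouped by their titles. The submitters' processing notes list WBcel235 as the build and RSEM, StringTie 1.3.1, HISAT2 and fastp 0.18.0 as tools, without saying what each did. The authors deposited estimated counts per gene, already rounded to whole numbers, and FPKM, which are scaled for length and library size, per the file headers. Their table also holds a log2 fold change (of mean FPKM, as deposited) and p-values and FDR, per the file headers.

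Counts were tested with edgeR 4.0.16 (R 4.3.3): quasi-likelihood F-test, TMM scaling, default filter on low counts, group as the only term, and Benjamini-Hochberg adjustment over 13252 genes with a threshold of 0.05. Levels in CPM use the library total times its TMM factor. Total counts were 23390547 to 24593469, so that 3 counts correspond to 0.122 to 0.128 CPM. Approximate standard errors were derived by dividing the fold change by the root of its F value. Ratios between genes used exact permutation tests. Alternatives were DESeq2 1.42.0, other scaling, no filter, libraries left out, a loess correction of each library for exon length (Ensembl annotation of WBcel235, 20105 identifiers matched), and the replicate number as a block. Same-numbered libraries deviated together, with correlations of 0.210, 0.277 and 0.566 across 12028 genes for numbers 1, 2 and 3. Each exceeded 0.1, the limit set for treating the numbers, which come from the titles, as pairs. Between control 1 and diquat 2 the correlation was 0.303, above that of the pair numbered 1, and between control 2 and diquat 1 it was 0.145. Both also exceeded the limit, so it cannot show the pairing of numbers 1 and 2. The numbering of these pairs rests on the titles. Replicates differed by more than counting noise (15.5 or more as chi-square per degree of freedom). The fit was tested on simulated data.

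The members and lists were chosen with earlier results of these data known. Named genes were the 9 members, and from each of 5 pathway lists and the muscle list both genes of highest mean FPKM plus up to 4 past the test. Of the 156 list symbols 153 matched the table. Genes named beyond this rule are given as chosen after their values were seen. Sequences of these genes were not used here.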

Additional observations from a re-analysis of the deposited data

How the results depend on the processing

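Without the block, 0 of the 9 genes was called under any scaling, filter, tool or left-out library run here. Over all genes, 2 were called higher with no count filter, 2 with DESeq2 and 1 with the length trend removed. Leaving out single libraries gave 0 to 1 genes higher and 27 (without diquat 1) to 116 genes lower, and 38 without control 2 and 71 without control 1.

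With the replicate block 598 genes were called higher and 530 lower, and 4 of the 9 were called higher. The blocked log2 fold changes were 0.34 for lam-1, 0.31 for lam-2, 0.28 for lam-3 and 0.33 for nid-1. Without pair 1 the blocked fit called 15 genes higher and 181 lower and 0 of the 9. Without pair 2 it called 329 higher and 333 lower, and 3 of the 9 (lam-1 at 0.38, lam-3 at 0.42 and nid-1 at 0.39). Without pair 3 it called 436 higher and 482 lower, and 3 of the 9 (lam-1 at 0.37, lam-2 at 0.37 and nid-1 at 0.34). With the block and the length correction together 538 genes were higher and 722 lower. Of the 9, 2 were then higher (lam-1 at 0.21 and nid-1 at 0.21) and 4 lower (emb-9 at -0.28, let-2 at -0.28, cle-1 at -0.27 and unc-52 at -0.26). The cause of these changes was not tested. Blocked calls in the pathway and tissue lists, and all calls with both corrections, were not examined with a pair left out. Calls among pathway genes with the block were 7 higher, and with both corrections 4 higher and 5 lower. Calls among tissue markers were 1 higher and 11 lower with the block, 1 higher and 15 lower with both corrections, and 0 lower with the length trend removed alone, against 1 lower in the plain test (0 to 1 with a library left out).

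Leaving out single libraries without the block, the log2 fold change of lam-3 ranged from -0.11 to 0.60. That of epi-1 ranged from -0.0042 to 0.39 and that of unc-52 from -0.21 to 0.0014. Each turned sign without diquat 3 alone. With both libraries numbered 3 left out of the blocked fit, none turned sign (0.16 for lam-3, 0.23 for epi-1 and -0.05 for unc-52). The log2 difference in the ratio let-2 over emb-9 ranged from -0.019 to 0.022, epi-1 over lam-3 from -0.22 to 0.097, lam-1 over lam-2 from -0.72 to 0.25, nid-1 over lam-2 from -0.066 to 0.12 and cle-1 over emb-9 from -0.19 to 0.076. From counts per exon length lam-1 over lam-2 gave 0.026, and 0.027 with the length trend removed, against -0.34 from FPKM. cle-1 over emb-9 gave 0.0092 with the length trend removed, against -0.02 from FPKM. Paired sign flips over the 3 pairs cannot give a p under 0.25, and the ratios kept p at 0.25 or above.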

Other observations

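By a fixed measure of likeness, the Pearson correlation of log2 CPM over the 6 libraries with the mean standardised profile of the 9 basement membrane genes, the closest named genes were cest-1, rga-5, lfi-1, rbc-2 and pro-3, at 0.99 to 0.98. That mean joins laminin genes and collagen genes whose libraries were ordered in opposite ways, and the likeness is a description over 6 libraries that share depth and length trends. Closest to the mean of the laminin chains and nidogen, a profile chosen after the values were seen, were spd-5, which encodes a centrosome scaffold protein, mans-1, cls-1, ctf-18 and the kinetochore gene ndc-80. Their log2 fold changes were between 0.29 and 0.33, and none passed the edgeR test without the block (adjusted p = 0.819 to 0.821). Closest to the mean of emb-9, let-2 and unc-52, chosen in the same way, were tub-2, smr-1, the MAP kinase gene mpk-1, acl-8 and elb-1, with log2 fold changes of -0.13 to -0.05 (edgeR adjusted p = 0.853 to 0.940).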
